A study of Mus musculus with 7 samples.

Results

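The genes through which cells recognise lipopolysaccharide (LPS), the outer membrane component of Gram-negative bacteria, were examined in mouse liver. The members were taken by gene symbol and comprised 10 of the 56691 genes in the count table: Lbp and Cd14, which bind and present LPS, the receptors Tlr4, Ly96 and Tlr2, the adaptors Tirap, Myd88, Ticam1 and Ticam2, and the inhibitor Irak3. RNA sequencing covered livers of 4 control mice and 3 LPS-treated mice, out of the 6 mice that the study assigned to each group. All were male C57BL/6J mice, an inbred strain, bought at 8 weeks of age and kept for 2 weeks before treatment. LPS was given intraperitoneally at 10 mg/kg and livers were taken 24 h later. The sources used here do not state what the control mice received, and mice pretreated with sulforaphane were not analysed here.

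LPS-binding protein transfers LPS to CD14, and CD14 hands it to the complex of TLR4 with MD-2, the product of Ly96. From there the signal runs through TIRAP and MyD88 at the cell surface, or through TRAM and TRIF, the products of Ticam2 and Ticam1, after the receptor is taken up. In liver, hepatocytes secrete LPS-binding protein, Kupffer cells carry the receptor complex, and IRAK-M, the product of Irak3, restrains MyD88 signaling in macrophages.

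The counts summed to 14991022, 15096573, 15721944 and 18584140 in control mice 1 to 4, and to 20500391, 17095607 and 17821331 in LPS-treated mice 1 to 3. Levels are given in CPM, a count relative to the scaled size of its library, and 3 counts corresponded to between 0.138 and 0.212 CPM. LPS-treated mice 2 and 3 were closer to each other than any other pair in a group, with an SD of the log2 ratio of 0.10 against 0.29 to 0.58 in the 8 other pairs. They were kept as separate samples, and with both summed into 1 sample the same 6 members passed the test, while genes called lower fell from 1773 to 1195 and genes called higher from 1825 to 1348. Mitochondrial genes took 23.7%, 14.6%, 7.48% and 8.96% of the counts in control mice 1 to 4, and 6.45%, 3.83% and 3.94% in LPS-treated mice 1 to 3.

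Of the 10 members, 9 had enough counts to be tested, and 6 of the 9 were higher in LPS-treated mice at an adjusted p below 0.05: Lbp, Cd14, Tlr2, Myd88, Ticam1 and Irak3. Among all 13683 genes tested, 13.3% were called higher (1825 genes) and 13.0% lower (1773 genes). None of the 9 members was called lower by edgeR, none of those with a negative log2 fold change had an unadjusted p below 0.05, and DESeq2 called none lower. In each of the 6 called members the groups did not overlap and LPS-treated mice were on top, which held for 18.1% of all genes tested, while the opposite order, seen in none of the 9, held for 17.4%. The median log2 fold change was 1.11 over the 9 tested members and -0.01 over all genes tested. Without a scaling factor between libraries, 1350 genes were called higher and 2057 lower, the median over all genes moved to -0.13, and the 6 members were still called higher. Cd14, Tlr2 and Irak3 had few counts in control mice. The filter left out Ticam2, the member with the fewest counts, so by level the 9 tested members are not a neutral sample of the 10.

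**Figure D1:**
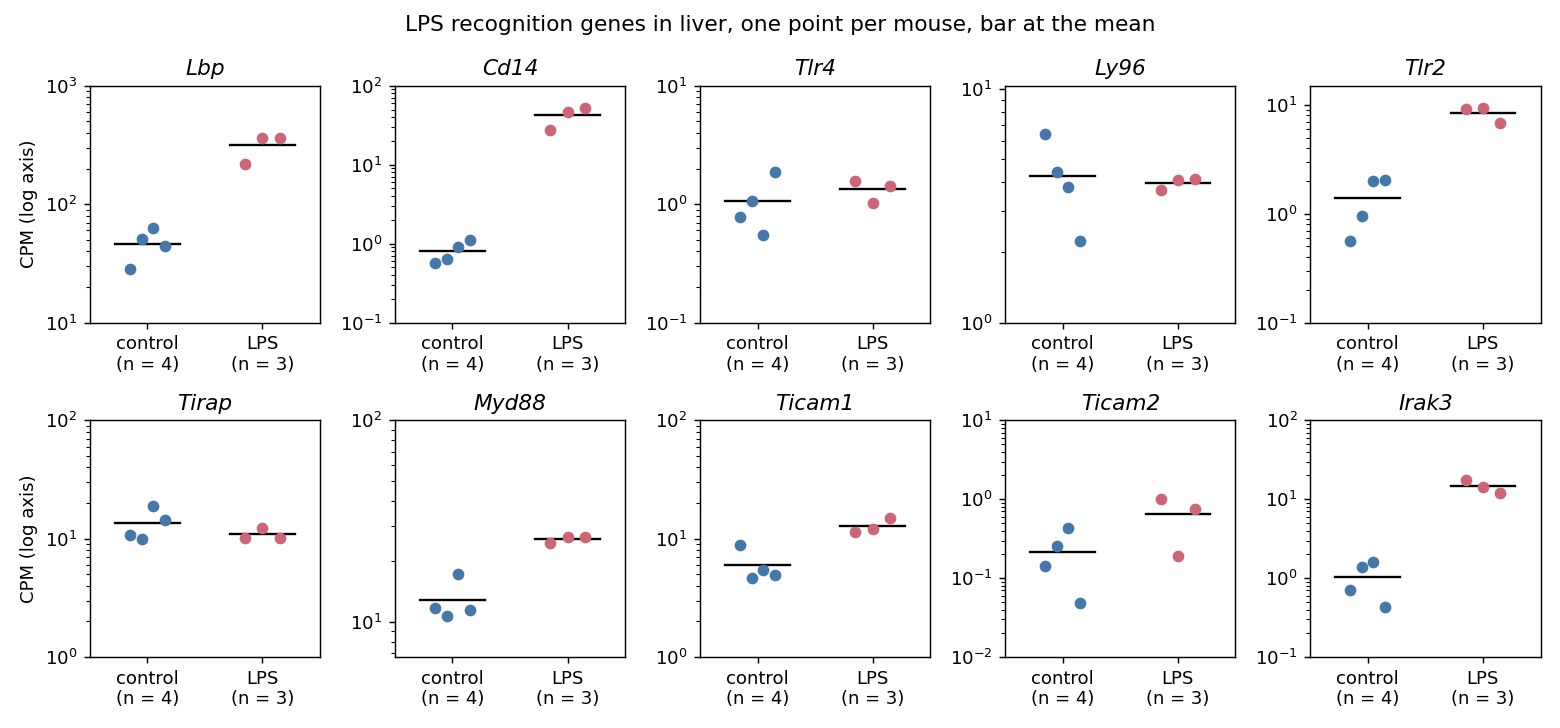
Levels of the 10 members in CPM on a log axis, with 1 point for each mouse and a bar at the mean of the 4 control mice or the 3 LPS-treated mice. The groups are separate for Lbp, Cd14, Tlr2, Myd88, Ticam1 and Irak3 and overlap for Tlr4, Ly96, Tirap and Ticam2.

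Lbp (ENSMUSG00000016024) encodes the plasma protein that extracts LPS monomers. Its level was 28.2, 51.0, 62.7 and 44.0 CPM in control mice 1 to 4 and 220 CPM, 361 CPM and 361 CPM in LPS-treated mice 1 to 3. LPS-treated mouse 1 was the lowest of its group and still above every control mouse. Mean levels were 46.5 ± 14.4 CPM in control mice (SD, n = 4) and 314 ± 81.5 CPM in LPS-treated mice (SD, n = 3), and Lbp rose by a log2 fold change of 2.75 with a standard error of 0.25 and an edgeR adjusted p of 5.55e-06. The 95% interval of the fold ran from 4.60 to 9.89.

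Cd14 (ENSMUSG00000051439), the co-receptor that passes LPS on to TLR4, had the largest change of the 9 tested members. Its level was 0.566, 0.631, 0.917 and 1.11 CPM in control mice 1 to 4, from 8, 10, 15 and 23 counts. In LPS-treated mice 1 to 3 it was 27.4, 46.8 and 52.3 CPM, from 595, 726 and 840 counts. The 2 groups were far apart, and LPS-treated mouse 1 was again the lowest of its group. Control mice had a mean of 0.807 ± 0.255 CPM (SD, n = 4) and LPS-treated mice one of 42.2 ± 13.1 CPM (SD, n = 3), so that Cd14 rose by a log2 fold change of 5.66, with a standard error of 0.29 and an edgeR adjusted p of 3.83e-08. The fold was 50.6, with a 95% interval from 32.8 to 78.0. In bulk liver, a change in the number of cells that carry a transcript and a change in its amount per cell cannot be told apart.

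Tlr4 (ENSMUSG00000039005) encodes the signaling receptor for LPS. Its level was low in both groups, with 0.778, 1.07, 0.550 and 1.89 CPM in control mice 1 to 4 and 1.57, 1.03 and 1.43 CPM in LPS-treated mice 1 to 3. The groups overlapped, and control mouse 4 was the highest of the 7 mice. The log2 fold change was 0.31 with a standard error of 0.53 and an edgeR adjusted p of 0.717. The 95% interval of the fold ran from 0.560 to 2.75 and includes changes in both directions. The log2 fold change was 0.092 without control mouse 3 and 0.74 without control mouse 4.

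Ly96 (ENSMUSG00000025779) encodes MD-2, the subunit of the receptor complex that holds the lipid part of LPS. Its level was 6.44, 4.42, 3.79 and 2.23 CPM in control mice 1 to 4 and 3.69, 4.06 and 4.11 CPM in LPS-treated mice 1 to 3. All 3 LPS-treated mice lay within the range of the control mice, which was set by control mice 1 and 4. The log2 fold change was -0.09 with a standard error of 0.35 and an edgeR adjusted p of 0.888, and the 95% interval of the fold was 0.559 to 1.59. Without control mouse 1 the sign turned and the log2 fold change was 0.18.

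Tlr2 (ENSMUSG00000027995), a receptor for bacterial lipoproteins that shares TIRAP and MyD88 with TLR4, differed between the groups. Its level was 0.566, 0.947, 2.02 and 2.03 CPM in control mice 1 to 4 and 9.13, 9.34 and 6.85 CPM in LPS-treated mice 1 to 3. The lowest LPS-treated mouse was above the highest control mouse. Tlr2 rose by a log2 fold change of 2.57 with a standard error of 0.39 and an edgeR adjusted p of 0.000345, and the 95% interval of the fold was 3.32 to 10.7.

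Tirap (ENSMUSG00000032041) encodes the adaptor that brings MyD88 to TLR4 and TLR2. Its level was 10.8, 9.97, 19.0 and 14.3 CPM in control mice 1 to 4 and 10.2, 12.3 and 10.1 CPM in LPS-treated mice 1 to 3. The groups overlapped, with control mouse 3 the highest. The log2 fold change was -0.31 with a standard error of 0.23 and an edgeR adjusted p of 0.353, and the 95% interval of the fold was 0.569 to 1.14. Without control mouse 3 the log2 fold change was -0.11.

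Myd88 (ENSMUSG00000032508) encodes the adaptor that recruits the IRAK kinases. Its level was 11.7, 10.7, 17.4 and 11.5 CPM in control mice 1 to 4 and 24.7, 26.5 and 26.5 CPM in LPS-treated mice 1 to 3. Control mouse 3 stood above the other control mice, and all control mice were below the LPS-treated mice. Myd88 rose by a log2 fold change of 1.01 with a standard error of 0.18 and an edgeR adjusted p of 0.00129, and the 95% interval of the fold was 1.53 to 2.66.

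Ticam1 (ENSMUSG00000047123) encodes TRIF, the adaptor of the interferon-inducing branch of TLR4 signaling. Its level was 8.85, 4.67, 5.44 and 4.94 CPM in control mice 1 to 4 and 11.4, 12.0 and 15.1 CPM in LPS-treated mice 1 to 3. The groups did not overlap, although control mouse 1 came close to LPS-treated mouse 1. Ticam1 rose by a log2 fold change of 1.11 with a standard error of 0.25 and an edgeR adjusted p of 0.00531, and the 95% interval of the fold was 1.49 to 3.12.

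Ticam2 (ENSMUSG00000056130) encodes TRAM, which links TLR4 to TRIF. It had 2, 4, 7 and 1 counts in control mice 1 to 4 and 22, 3 and 12 counts in LPS-treated mice 1 to 3, and it did not pass the count filter. The groups overlapped, with LPS-treated mouse 2 at 0.193 CPM and control mouse 3 at 0.428 CPM. With no filter, the log2 fold change was 1.59 at an edgeR adjusted p of 0.337, and with DESeq2 it was 1.61 at an adjusted p of 0.278. No difference in Ticam2 was detected with these counts.

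Irak3 (ENSMUSG00000020227) had the second largest change after Cd14. Its level was 0.708, 1.39, 1.59 and 0.435 CPM in control mice 1 to 4 and 17.8, 14.3 and 12.1 CPM in LPS-treated mice 1 to 3. The groups were separate, and here LPS-treated mouse 1 was the highest of its group. Irak3 rose by a log2 fold change of 3.85 with a standard error of 0.36 and an edgeR adjusted p of 6.34e-06, and the 95% interval of the fold was 8.38 to 24.8.

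**Figure D2:**
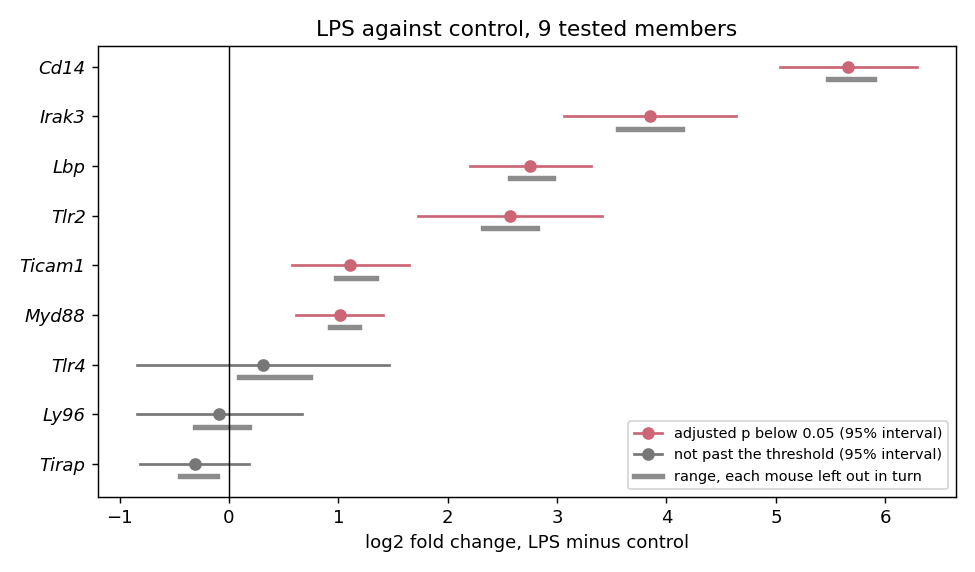
Log2 fold change, LPS minus control, of the 9 tested members, with points at the estimate, thin lines for the 95% interval and thick lines for the range when each of the 7 mice was left out in turn. The intervals of Cd14, Irak3, Lbp, Tlr2, Ticam1 and Myd88 lie above 0, and those of Tlr4, Ly96 and Tirap include 0. Ticam2 did not pass the count filter and is not drawn.

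Levels of different members were compared per length, as CPM per kilobase of annotated exons (GENCODE M21, an older annotation than the one of the counts). In control mice the order of mean levels was Lbp with 9.62 CPM per kilobase, Myd88 with 4.98, Ly96 with 4.13, Tirap with 2.74, Ticam1 with 1.996, Cd14 with 0.466, Tlr2 with 0.461, Irak3 with 0.280, Tlr4 with 0.193 and Ticam2 with 0.0376. Of the 9 pairs of neighbours in this order only 2 did not overlap over the 4 mice, Ticam1 with Cd14 and Tlr4 with Ticam2. In LPS-treated mice the order was Lbp with 65.0 CPM per kilobase, Cd14 with 24.3, Myd88 with 10.1, Ticam1 with 4.29, Irak3 with 4.01, Ly96 with 3.87, Tlr2 with 2.80, Tirap with 2.21, Tlr4 with 0.242 and Ticam2 with 0.112. Here 6 of the 9 pairs of neighbours did not overlap, and Ticam1 with Irak3, Irak3 with Ly96 and Tlr2 with Tirap did. Cd14 moved from place 6 to place 2, while Tlr4 kept place 9 and Ticam2 place 10.

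Ratios of counts between members in the same library do not depend on the scaling between libraries. The count of Cd14 relative to Tlr4 was 0.727, 0.588, 1.67 and 0.590 in control mice 1 to 4 and 17.5, 45.4 and 36.5 in LPS-treated mice 1 to 3. The log2 ratio was higher by 5.21 in LPS-treated mice, and the two-sided exact permutation test gave p = 0.0286, the smallest that 35 splits of the 7 mice allow. The ratio in each LPS-treated mouse was above those in the control mice. Irak3 relative to Myd88 was 0.0606, 0.129, 0.0915 and 0.0378 in control mice and 0.721, 0.539 and 0.458 in LPS-treated mice, a log2 difference of 2.91 (exact permutation p = 0.0286). Tirap relative to Myd88 was 0.927, 0.929, 1.10 and 1.24 in control mice and 0.415, 0.464 and 0.383 in LPS-treated mice, a log2 difference of -1.31 (exact permutation p = 0.0286). These 3 ratios did not overlap between the groups, and after Benjamini-Hochberg adjustment over the 7 ratios compared each had an adjusted exact p of 0.0667 and did not pass 0.05. Tlr2 relative to Tlr4 also did not overlap, with at most 3.67 in control mice and at least 4.78 in LPS-treated mice, and had a log2 difference of 2.30 (exact permutation p = 0.0571, adjusted 0.0999). The differences were -0.43 for Ly96 to Tlr4 (exact p = 0.6286), 0.10 for Ticam1 to Myd88 (exact p = 0.7429) and 0.35 for Ticam2 to Ticam1 (exact p = 0.7429), and these 3 ratios overlapped between the groups.

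Some members share annotated exon bases with another gene, and how the counting treated strand and multi-mapped reads was not stated. Ticam2 shares 838 bases, 14.5% of its exons, with Tmed7 on the same strand, and Tmed7 had between 1894 and 4761 counts and a log2 fold change of 0.82 (edgeR adjusted p = 0.000740). The few counts of Ticam2 are therefore uncertain. Myd88 shares 290 bases, 11.3% of its exons, with Acaa1a on the opposite strand, whose log2 fold change was -0.28 (edgeR adjusted p = 0.237). Irak3 shares 28 bases with Gm47009, which had 0 counts, and 192 bases with Tmbim4, both on the opposite strand, and Tmbim4 had a log2 fold change of 0.28 (edgeR adjusted p = 0.212). Tirap shares 39 bases with Srpr and 446 bases with Gm39318, both on the opposite strand. Srpr was called higher at 0.68 (edgeR adjusted p = 0.0201), and Gm39318 had at most 5 counts in any mouse. Thus none of the called members shares exon bases on its own strand with another gene of that annotation.

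The promoters of members were read from RefSeq (GRCm38.p6), which gave 7 promoters for 5 members, Tlr2, Tirap, Myd88, Ticam1 and Irak3, and the 250 bases before each start were searched on both strands. Promoters of Tlr2 and Myd88 are shown because these 2 members had a match, and both rose. Ticam1 and Irak3 also rose but had no match to any motif searched. Lbp and Cd14 rose as well, and their promoters were not available to search. An NF-kappa B motif was found in 1 of the 7, that of Tlr2, and in 3.90% of the 32851 promoters of the same length. Its 2 matches in the Tlr2 promoter overlap each other, and the capitals below mark the second, in the exon-free part at chr3:83841768-83841858 on the minus strand.
Tlr2: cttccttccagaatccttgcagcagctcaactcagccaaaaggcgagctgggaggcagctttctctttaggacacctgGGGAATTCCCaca
An interferon-stimulated response element (GAAA, 2 further bases and GAAA again, in 2.98% of promoters) was found only in the Myd88 promoter among the 7, marked in capitals in its exon-free part at chr9:119340042-119340268 on the minus strand, and it overlaps a STAT motif (TTCNNNGAA, in 7.02% of promoters).
Myd88: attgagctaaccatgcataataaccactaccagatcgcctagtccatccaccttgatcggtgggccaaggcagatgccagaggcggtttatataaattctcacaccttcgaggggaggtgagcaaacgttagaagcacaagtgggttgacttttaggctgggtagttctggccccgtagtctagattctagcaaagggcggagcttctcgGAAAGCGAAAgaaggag
The AP-1 motif (TGANTCA, in 6.75% of promoters) and the C/EBP motif (TTGCNNAA, in 9.56%) had no match in the 7. A match describes these letters only, and no binding was measured.

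Other Toll-like receptors were measured in the same libraries. Of 10 such genes 7 were tested, and 4 of the 7 were called higher and none lower by edgeR (1 at an unadjusted p below 0.05, and 1 called lower by DESeq2, both times Tlr5), with a median log2 fold change of 1.65. Over all genes tested, 13.3% were called higher and 13.0% lower, and the calls in this and the later lists stand beside these shares. Tlr6 had 7, 7, 0 and 0 counts in control mice, and Tlr1 and Tlr13 also had few, so the count and the median were partly set by the filter. Only 3 of the 7 had 10 counts or more in each of the 7 mice, and none of the 4 called genes was among them. Tlr13, a sensor of bacterial ribosomal RNA, had a log2 fold change of 3.41 (edgeR adjusted p = 4.10e-05), and Tlr1, a partner of TLR2, one of 2.72 (edgeR adjusted p = 0.00446). Tlr6, the other partner of TLR2, was at 2.71 (edgeR adjusted p = 0.0473) and Tlr7 at 1.65 (edgeR adjusted p = 0.0448). When mice were left out, the log2 fold change was 2.37 to 3.34 for Tlr1 and 2.24 to 3.36 for Tlr6. The list count fell to 2 without control mouse 3, control mouse 4 or any single LPS-treated mouse, and with LPS-treated mice 2 and 3 summed, since Tlr6 and Tlr7 no longer passed. It was also 2 with the replicate number as a block and with genes over 1% left out of the library size. Across 18 alternatives, a stricter threshold among them, Tlr7 lost its call in 11 and Tlr6 in 12. Tlr5, the flagellin receptor, was at -0.91 (edgeR adjusted p = 0.050004, just short of the threshold) and was called lower without control mouse 3 and under 4 other settings. Tlr12 was at -0.50 (edgeR adjusted p = 0.300) and Tlr3 at 0.41 (edgeR adjusted p = 0.342), while Tlr8, Tlr9 and Tlr11 had too few counts.

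Genes that bind or take up LPS beside the members numbered 11, of which 10 were tested and 6 were called higher, with a median log2 fold change of 2.67. Itgam, Trem1 and Aoah, the last with 12, 9, 8 and 6 counts in control mice, entered the test through their counts in LPS-treated mice. The count and the median were therefore partly set by the filter, and with at least 10 counts in every sample 3 of 6 tested were called higher. The integrin chains Itgam and Itgb2, which form complement receptor 3, had log2 fold changes of 6.39 and 2.90 (edgeR adjusted p = 2.28e-06 and 6.69e-05). Without control mouse 1, Itgam was at 7.73. The scavenger receptors Cd36 and Msr1 had log2 fold changes of 2.59 and 2.75 (edgeR adjusted p = 1.12e-07 and 1.99e-06). Of 4 chaperones of Toll-like receptors, only Hsp90b1, which folds them in the endoplasmic reticulum, was called, at 1.00 (edgeR adjusted p = 0.000630), and the count was 2 without control mouse 1.

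Downstream of the adaptors, 14 kinases, their binding proteins and ubiquitin enzymes were tested and 3 (21.4%) were called higher, against 13.3% of all genes tested. The median log2 fold change of the 14 was 0.28. Ikbke, a kinase of the TRIF branch, was at 1.71 (edgeR adjusted p = 2.93e-05). Traf3 at 0.63 (edgeR adjusted p = 0.0481) and Ube2n at 0.43 (edgeR adjusted p = 0.0456) were close to the threshold, and Ikbke alone was called without control mouse 2, control mouse 4 or any single LPS-treated mouse, with LPS-treated mice 2 and 3 summed, without a scaling factor and with mitochondrial genes left out. Among 15 inhibitors other than Irak3, 12 were tested, 8 were called higher and 1 lower, with a median log2 fold change of 0.97. Sarm1, called higher, had 0, 1, 5 and 6 counts in control mice and was tested through LPS-treated mice. The count and the median were therefore partly set by the filter. Tnfaip3 also had few counts in control mice, with 4, 9, 19 and 16. The number called higher was 5 with LPS-treated mice 2 and 3 summed, 5 at an adjusted p below 0.01, and 5 of 9 tested with at least 10 counts in every sample. Tnfaip3, which encodes the ubiquitin-editing enzyme A20, was at 4.97 (edgeR adjusted p = 1.57e-07), and its partner Tnip1 at 1.58 (edgeR adjusted p = 4.88e-05). Zc3h12a, which encodes an RNase that degrades cytokine transcripts, was at 2.41 (edgeR adjusted p = 0.000229) and Trim30a at 1.39 (edgeR adjusted p = 0.000864). Dusp1, a phosphatase of MAP kinases, was the 1 called lower, at -1.60 (edgeR adjusted p = 0.000263).

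Markers of myeloid cells were measured in the same libraries. Of 6 monocyte markers 5 were called higher, and their summed level was 45.3, 48.8, 48.6 and 28.02 CPM in control mice 1 to 4 and 169, 135 and 146 CPM in LPS-treated mice 1 to 3. Lyz2 was the most abundant of them in both groups. Chil3 had 0, 5, 0 and 0 counts in control mice and was tested only through LPS-treated mice, and with at least 10 counts in every sample 3 of 4 tested were called. Of 10 neutrophil markers 6 passed the count filter and were called higher, but some passed it only through their counts in LPS-treated mice, such as Mmp8 with at most 1 count in any control mouse, so this count was partly set by the filter. Their list had sums of 5.24, 4.54, 2.02 and 2.85 CPM in control mice and 200 CPM, 141 CPM and 141 CPM in LPS-treated mice, and the most abundant was Csf3r in control mice and S100a9 in LPS-treated mice. Ly6g and Mpo, among the 4 neutrophil markers that were not tested, had at most 7 and 1 counts in any mouse. By staining of protein, the paper reported more Ly6G-positive neutrophils in livers after LPS. Of 11 Kupffer cell and macrophage markers 5 were called higher and 1 lower, and their sums were 150 CPM, 208 CPM, 193 CPM and 130 CPM in control mice and 739 CPM, 160 CPM and 166 CPM in LPS-treated mice. Without Marco, the sums were 147, 202, 188 and 127 CPM in control mice and 329, 93.5 and 101 CPM in LPS-treated mice, so that LPS-treated mouse 1 was above and mice 2 and 3 below all control mice. Clec4f, a Kupffer cell marker, was the most abundant in control mice and was the 1 called lower, at -2.13 (edgeR adjusted p = 0.00216). Marco was the most abundant in LPS-treated mice, with 8889 counts in LPS-treated mouse 1 against 1032 and 1054 in mice 2 and 3, and without mouse 1 its log2 fold change was 4.17 in place of 5.62, with 3 of the 11 markers called higher and 4 lower. Without LPS-treated mouse 1, the log2 fold change of Cd14 was 5.90, that of Lbp 2.96 and that of Irak3 3.69, and all 6 members were still called. The part of myeloid cells in the change of each member was not tested.

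The genes whose pattern over the 7 mice was most like that of a member were sought by the root mean square difference of centred log2 CPM with 0.5 CPM added, and 7068 genes that reached 10 CPM on average were compared. For Cd14 they were Bmper (0.30), Serpina3n (0.39) and 3930402G23Rik (0.39), and the last 2 had log2 fold changes of 5.62 and 4.83. Bmper had a mean of 0.0678 CPM in control mice and 25.7 CPM in LPS-treated mice, and at such low levels the added value sets the centred pattern. Tlr4, and Cd14 in control mice, were themselves near the added value, which compresses their patterns against those of the more abundant genes compared. The nearest to Lbp were Itih4 (0.18), Socs3 (0.26) and Fga (0.27), with log2 fold changes of 2.998, 2.90 and 2.74. Tlr4 was nearest to Herpud1 (0.14), Ip6k2 (0.19) and Smarcad1 (0.20), none of which was called, although Ip6k2 was called higher without control mouse 4 (log2 fold change 0.55, edgeR adjusted p = 0.0313) and with the replicate number as a block (0.56, edgeR adjusted p = 0.0297). These genes were picked for likeness over the same 7 mice, so their difference between the groups follows from the choice.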

How the data were processed

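Poly(A) RNA of 7 livers was made into strand-specific libraries and read on the MGISEQ2000 platform. The authors deposited raw counts of reads on each of 56691 genes, not normalized. The submitters' processing notes name cutadapt 1.9.1, HISAT2 2.2.1, HTSeq 0.6.1, DESeq2 1.34.0 and the build GRCm39. FPKM values from Cufflinks, named in the methods, were not used here.

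Counts were filtered with filterByExpr, scaled by TMM and compared with the quasi-likelihood test of edgeR 4.0.16 in R 4.3.3, with treatment as the single factor. Adjusted p-values are Benjamini-Hochberg values over 13683 genes, and calls needed one below 0.05 but no minimum fold. Standard errors and intervals came from the F statistic. Ratios had 0.5 added to each count and were compared with an exact permutation test. DESeq2 1.42.0, other scalings, filters and thresholds, a block for the replicate number and fits that left out 1 mouse were the alternatives. Floors of 3 counts cover counting error only.

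Named were all members, in each pathway list up to 4 called higher and 3 lower by smallest p, every tested Toll-like receptor, the most abundant gene of each cell type list by the mean over all mice, and the 3 genes most like Cd14, Lbp and Tlr4. Ly6g, Mpo, Mmp8, Chil3, Trem1, Aoah, Sarm1, Cd3e, Cd8a, the leading markers of single groups and genes overlapping members were added after their values were seen. The members and lists were chosen with earlier results of these data known. GENCODE M21 holds 52073 of the identifiers, with all 10 members among them, and gave exon lengths and shared exon bases on its own build, GRCm38. Positions of genes are not printed because the builds differ.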

Additional observations from a re-analysis of the deposited data

Results flagged for a closer look

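In 69 comparisons of the 4 control mice, 5 had a single mouse far from the other 3 by Dixon's criterion, and chance gives about 1 in 20. Myd88 was at 17.35 CPM in control mouse 3 against 10.73 to 11.68 in the other control mice. Tlr12 was at 3.605 CPM in control mouse 3 against 5.166 to 5.428, and Tlr3 at 10.47 CPM in control mouse 1 against 5.255 to 5.903. The summed level of the inhibitors other than Irak3 was 165.2 CPM in control mouse 1 against 220.7 to 223.9. The summed level of the monocyte markers was 28.02 CPM in control mouse 4 against 45.29 to 48.78.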

How the results depend on the processing

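Across 19 alternatives of the fit, 7 of them leaving out 1 mouse, 8 of the 9 tested members kept their direction and their side of the threshold wherever they were tested, and Ly96, not called in any, turned sign in 1. Leaving out mice, the log2 fold change was 5.48 to 5.90 for Cd14, 2.57 to 2.96 for Lbp, 3.56 to 4.15 for Irak3, 2.32 to 2.81 for Tlr2, 0.92 to 1.19 for Myd88, 0.98 to 1.35 for Ticam1, 0.092 to 0.74 for Tlr4, -0.45 to -0.11 for Tirap and -0.31 to 0.18 for Ly96. With at least 10 counts in every sample, 3 of 5 tested members were called higher, since Cd14, Tlr2, Irak3 and Tlr4 were then not tested. Genes called higher numbered 1825, with 1091 at an adjusted p below 0.01 and 1068 with an absolute log2 fold change above 1. Genes called lower numbered 1773, with 993 and 1000 at these thresholds and 1146 to 1868 when mice were left out, 1146 without LPS-treated mouse 2 and 1159 without mouse 3. The paper describes no pairing of control with LPS-treated mice. Deviations of same-numbered mice correlated at 0.20, -0.06 and 0.08, against -0.15 to 0.11 for mice with different numbers. These few correlations cannot decide whether the numbers 1 to 3 pair the mice. With the replicate number as a block, 1647 genes were called higher and 1587 lower, and the 6 members were still called. Without a scaling factor, the log2 fold change was -0.040 for Spp1 and -0.070 for Smarcad1. Leaving out mice, it was -0.34 to 0.043 for Dcn, -0.17 to 0.55 for Spp1 and -0.086 to 0.23 for Smarcad1. The log2 difference of Ticam1 to Myd88 was -0.085 to 0.34 when mice were left out. That of Ticam2 to Ticam1 was -0.17 to 0.97 when mice were left out, -0.27 with 5 added to each count and -0.068 over same-numbered mice (replicate block). The cause of these turns was not tested. Of the 37 other genes that the naming rule gave, 26 kept direction and call, 5 lost a call, 4 gained one and 3 turned sign in at least 1 alternative, and genes named beyond that rule were not followed. Tlr4 and Ticam2 had both low counts and spread between mice. Counts ran from 9 to 39 for Tlr4 in control mice and from 3 to 22 for Ticam2 in LPS-treated mice. What each contributed to the lack of a call was not tested.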

Other observations

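Markers of other liver cells were measured in the same libraries. Of 8 hepatocyte markers 2 were called higher and 3 lower, and their summed level was 62058, 60658, 85207 and 72961 CPM in control mice 1 to 4 and 41147, 45225 and 45111 CPM in LPS-treated mice 1 to 3. This sum was mostly Alb, and the median log2 fold change of the 8 markers was 0.18. Alb, the most abundant of them, had a log2 fold change of -0.93 (edgeR adjusted p = 0.0137) and was not called without LPS-treated mouse 2 or mouse 3 (edgeR adjusted p = 0.0618 and 0.0641), when 1 marker was called in each direction, as with both mice summed. Of 7 sinusoidal endothelial markers 2 were called higher and 2 lower, and Stab2, the most abundant by the mean over all 7 mice, was at -0.54 (edgeR adjusted p = 0.122). Clec4g led in control mice with 25.4 CPM and was lower at -4.43 (edgeR adjusted p = 2.23e-06), and Pecam1 led in LPS-treated mice with 26.3 CPM. The count lower was 1 without control mouse 2, control mouse 4, LPS-treated mouse 2 or LPS-treated mouse 3, and Stab2 was called without control mouse 3 or LPS-treated mouse 1. Of 6 stellate cell markers 3 were called lower, and Dcn, the most abundant, was at -0.16 (edgeR adjusted p = 0.677). Without control mouse 1, 1 stellate marker was called higher. Of 8 lymphocyte markers 4 were tested and 2 called lower, and the median log2 fold change of the 4 was -2.58. Cd4, the most abundant in control mice, was at -3.001 (edgeR adjusted p = 0.00747). Klrb1c, not tested, led in LPS-treated mice with 0.892 CPM against 0.205 CPM in control mice. Cd3e and Cd8a, also not tested, had 0.328 and 0.255 CPM in control mice and 0.310 and 0.210 CPM in LPS-treated mice. The number of lymphocyte markers called lower was 1 without control mouse 1, 2 or 3 or LPS-treated mouse 1 or 2. The number tested also changed, to 2, 1 and 1 without control mice 1, 2 and 3. It was 4 and 6 without LPS-treated mice 1 and 2. Of 5 cholangiocyte markers 1 was called higher, and Spp1, the most abundant, was at 0.05 (edgeR adjusted p = 0.937), while 2 were called without control mouse 1.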
